A study of Danio rerio with 18 samples.

Results

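The step of zebrafish development from 6 to 8 hours post fertilisation (hpf) was examined in messenger RNA for 5-methylcytosine (m5C), a cytosine that carries a methyl group. Its sites were those listed at 8 hpf, at 6 hpf or at both, matched by chromosome, position and strand. They numbered 3183 of the 9047 distinct sites found over 9 stages and lay in 2264 genes. Embryos at 8 hpf and at 6 hpf were wild-type zebrafish of the AB strain, bred naturally, and no allele or agent set the groups apart. Many embryos were pooled for each stage, and polyadenylated RNA was treated with bisulfite and sequenced in 2 libraries per stage. Bisulfite turns unmethylated cytosine into a base that is read as T, while m5C is still read as C. The C reads divided by the C and T reads together give the methylation level of a site, and the sum of C and T reads is its coverage.

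In the early embryo, development first runs on mRNA that the mother stored in the egg. During the maternal-to-zygotic transition the embryo starts to transcribe its own genome and the stored mRNA is broken down, and gastrulation then moves the cells into the germ layers. In animal mRNA, m5C is placed mainly by the methyltransferases NSUN2 and NSUN6, and ALYREF and YBX1 are known as proteins that bind it. C and T reads of 1 position do not tell a copy stored by the mother from one made by the embryo.

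At 8 hpf 1252 sites were listed, in 973 genes, and at 6 hpf 2685 sites, in 1995 genes. Positions are those of the Zv9 genome as listed. Both stages shared 754 sites in 632 genes. A further 498 sites in 433 genes were listed at 8 hpf and not at 6 hpf, and 1931 sites in 1555 genes were listed at 6 hpf and not at 8 hpf. Seen from the list of 8 hpf, 60.2% of its sites (Wilson 95% interval 57.5% to 62.9%) were also in the list of 6 hpf. Seen from the list of 6 hpf, 28.1% of its sites (26.4% to 29.8%) were also in the list of 8 hpf. Of the genes, 704 had a site at both stages, 269 only at 8 hpf and 1291 only at 6 hpf. In 72 of the 704 genes the stages had different sites and none in common.

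Each list combines the libraries of its stage, so no value has a spread between replicates, and tests compare pooled libraries rather than embryos. Median coverage of a listed site was 97 reads at 8 hpf (range 20 to 32512) and 133 reads at 6 hpf (range 20 to 53843). No listed site had under 20 reads or a level under 10%. A site that is missing from a list may therefore be under either minimum, may have failed another filter or may be unmethylated, and these cases cannot be told apart. Intervals of a site cover counting error only, since PCR copies were not told from separate molecules. Since only called sites are listed, marker genes of the embryo's cell types could not be checked. In whole embryos, fewer cells of a type and less RNA per cell cannot be told apart.

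The shared sites show what happened to the same cytosine over the step. Their median level was 17.9% at 8 hpf (95% interval 16.9% to 18.4%) and 30.4% at 6 hpf (28.6% to 32.4%). The median change was −8.99 percentage points (−11.1 to −8.24), and 579 of the 754 sites (76.8%) had the lower value at 8 hpf. A site whose level dropped under 10% is not among them, because it left the list.

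C and T reads moved differently. The median ratio of C reads, 8 hpf over 6 hpf, was 0.513 (95% interval 0.463 to 0.568), with more C reads at 184 sites and fewer at 564. The median ratio of T reads was 1.0 (0.868 to 1.09), with more at 378 sites and fewer at 374. Summed over the shared sites there were 94325 C reads at 8 hpf against 188534 at 6 hpf, and 401134 T reads at 8 hpf against 360620 at 6 hpf. The even balance of T reads held sites that went far in opposite directions, with T reads over 2-fold higher at 205 sites and over 2-fold lower at 219. These ratios use reads as listed, and divided by the mapped reads of each stage the medians were 0.402 for C and 0.787 for T. A T ratio between 1 and 1.28 drops below 1 under that scaling, whereas levels do not depend on it.

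**Figure D1:**
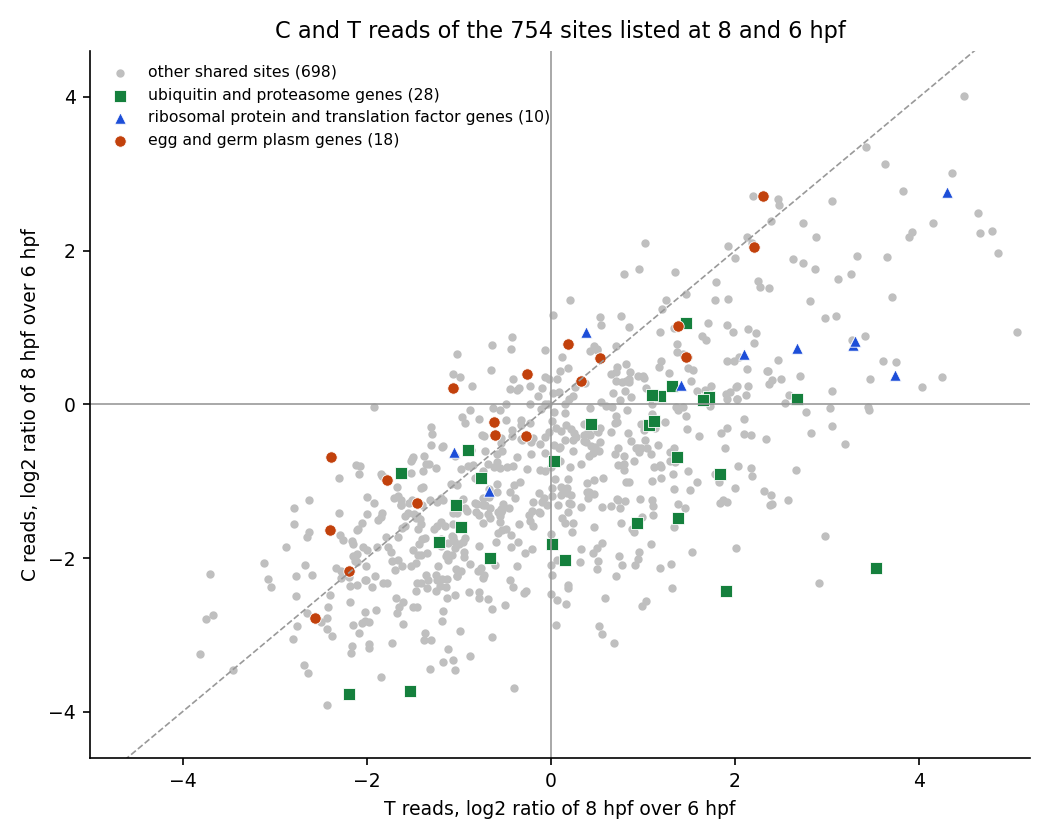
Log2 ratio of T reads (x axis) and of C reads (y axis), 8 hpf over 6 hpf, with 1 point for each of the 754 sites listed at both stages and sites of 3 groups of genes in colour. Points under the dashed diagonal lost level, and 12 of the 18 egg and germ plasm sites lie above it. To the right of 0 lie 8 of the 10 ribosomal protein and translation factor sites. Over all 754 sites the level was lower at 579, and T reads were higher at 378. Reads are as listed, not scaled by mapped reads.

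The shared sites were also sorted by a 2-fold change of either count. A level is made of these counts, so its change in each group follows in part from the sorting. The values are thus a description. At 189 sites (25.1%) C and T reads were both over 2-fold lower, and the median level was 19.3% at 8 hpf and 26.2% at 6 hpf. At 120 sites (15.9%) C reads stayed within 2-fold while T reads were over 2-fold higher, and the level was 15.6% at 8 hpf and 43.4% at 6 hpf. At 149 sites C reads were over 2-fold lower while T reads stayed within 2-fold, with 15.5% at 8 hpf and 37.8% at 6 hpf. The 32 sites where C reads were over 2-fold lower and T reads over 2-fold higher had 16.7% at 8 hpf and 69.2% at 6 hpf. At 53 sites both counts were over 2-fold higher, with 16.4% at 8 hpf and 27.8% at 6 hpf. At 30 sites C reads stayed within 2-fold and T reads were over 2-fold lower, and there the level was 25.2% at 8 hpf and 15.6% at 6 hpf. At 8 sites only C reads were over 2-fold higher, and at the remaining 173 neither count changed 2-fold.

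Falls in level were wider where coverage was higher. Where coverage was over 2-fold higher at 8 hpf (136 sites), the median change in level was −19.8 points. It was −11.5 points at the 366 sites whose coverage stayed within 2-fold, and −4.31 points at the 252 sites whose coverage was over 2-fold lower. Coverage includes the T reads that lower a level, so both are coupled at a site. Median levels at 6 hpf also differed, at 35.2%, 31.7% and 26.7% in the same order. In 79 genes, the level change of the first shared site against the coverage ratio of the last gave a Spearman correlation of 0.0525.

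Site by site, C and T reads of the stages were put to Fisher's exact test, which was two-sided, and p-values were adjusted over the 754 sites by the method of Benjamini and Hochberg. At an adjusted p under 0.05, the level was higher at 8 hpf at 27 sites in 27 genes (3.58% of the sites tested) and lower at 348 sites in 315 genes (46.2%), or 49.7% in either direction. A beta-binomial z test, which allows extra spread between stages and takes it from the step between 2 and 4 hpf, called 19 sites higher (2.52%) and 306 lower (40.6%), or 43.1% in either direction. The 348 lower sites had a median level of 16.2% at 8 hpf and 42.4% at 6 hpf, and T reads were higher at 251 of them and over 2-fold higher at 154. The 27 higher sites had a median of 43.2% at 8 hpf and 25.1% at 6 hpf, and T reads were over 2-fold lower at 20 of them. The calls rest on these same C and T reads, so the T reads of called sites are a description. Sites not called had a median coverage of 85 reads at 8 hpf and 140 at 6 hpf, and sites called lower 259 at 8 hpf and 236.5 at 6 hpf, so small changes at uncalled sites were not detectable at this depth.

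**Figure D2:**
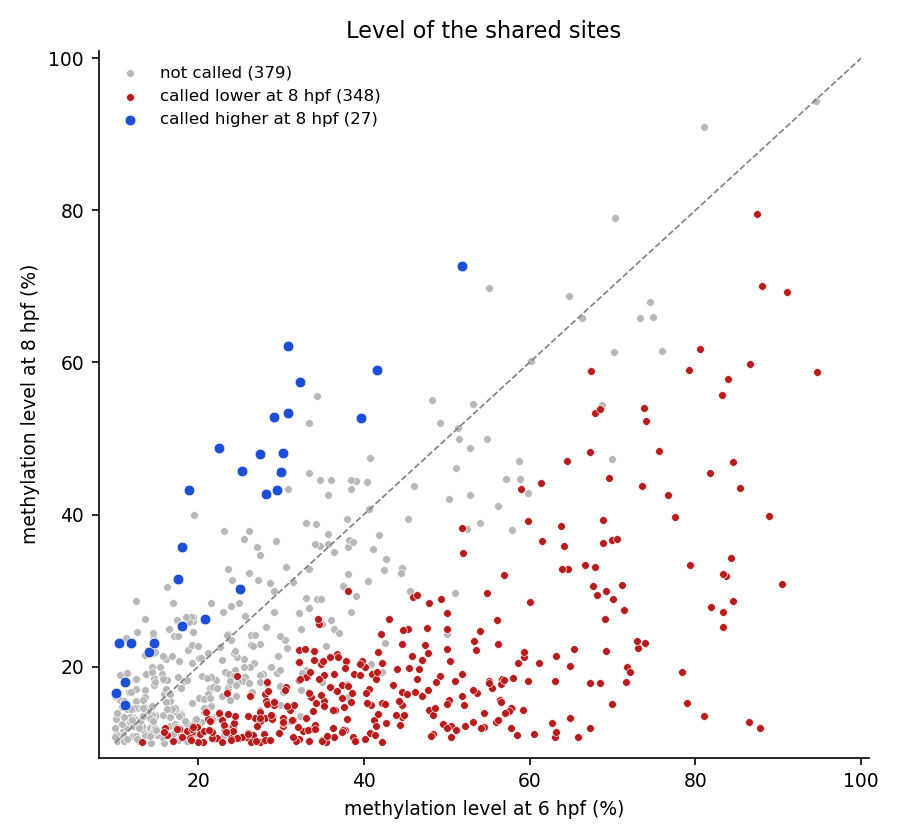
Methylation level in percent at 8 hpf (y axis) against 6 hpf (x axis) of the 754 shared sites, coloured by the call of Fisher's exact test. The 348 sites called lower spread to the right along the bottom, the 27 called higher lie above the dashed line of equal levels, and no site lies under 10%.

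Of the 10 largest called falls covered by at least 100 reads at 8 and at 6 hpf, those given here were at 9 sites that were 10.7% to 31.9% methylated at 8 hpf, against 63.0% to 87.9% at 6 hpf. The widest change was in birc6, which encodes a giant ubiquitin ligase that restrains cell death (chromosome 17, position 22540162). It had 21 C and 155 T reads at 8 hpf, a level of 11.9% (95% interval 7.94% to 17.6%), against 94 C and 13 T reads at 6 hpf, 87.9% (80.3% to 92.8%). Fisher's exact test gave an adjusted p of 5.14e-38. A site of the gene listed as fbxo10, whose current name is ECPAS, a proteasome adaptor, had 15.2% of 112 reads at 8 hpf and 79.0% of 119 at 6 hpf. In ddb1, which links substrates to a cullin ubiquitin ligase, it was 15.1% of 715 reads at 8 hpf and 69.9% of 811 at 6 hpf. In ccdc22, a subunit of the COMMD-containing complex that recycles membrane proteins, it was 27.2% of 320 reads at 8 hpf and 83.3% of 150 at 6 hpf. At these 9 sites C reads were fewer and T reads more at 8 hpf, with T ratios from 1.44 in clcn3, a chloride transporter, to 11.9 in birc6.

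The other members of this group were MAP4K4 (a stress kinase, 27.8% at 8 hpf and 81.9% at 6 hpf), clcn3 (19.3% at 8 hpf and 72.1% at 6 hpf), lnx2b (a ubiquitin ligase, 10.7% at 8 hpf and 63.0% at 6 hpf), alg5 (a sugar transferase of N-glycosylation, 31.9% at 8 hpf and 83.7% at 6 hpf) and anxa11b (an annexin, 17.8% at 8 hpf and 68.5% at 6 hpf). The 9 sites had stood between 70.8% and 97.1% at 0, 2 and 4 hpf. Of these sites, only that of alg5 (11.5%) was still listed at 10 hpf.

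**Figure D3:**
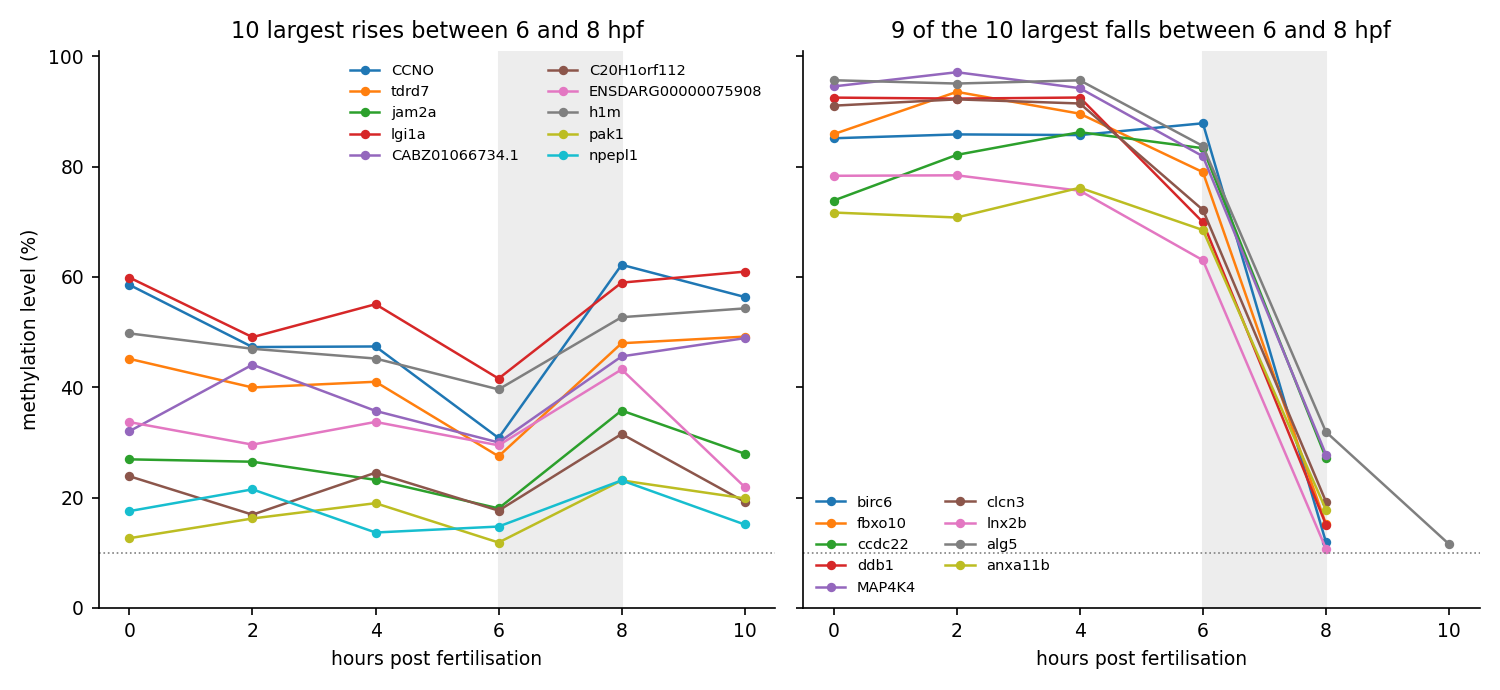
Methylation level in percent from 0 to 10 hpf (x axis) of the sites with the 10 largest called rises (left) and with 9 of the 10 largest called falls (right) over the shaded step between 6 and 8 hpf; the dotted line is the 10% minimum and a missing point is a stage that does not list the site. The falling sites were at 31.9% or less at 8 hpf, against 63.0% or more at 6 hpf and before. Of the 10 rising sites, 8 had their lowest level of 0 to 6 hpf at 6 hpf. Sites were ranked by the change between 6 and 8 hpf, so their values at these stages follow in part from the choice.

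The most deeply read shared sites gave the narrowest intervals. At pabpc1a, the cytoplasmic poly(A)-binding protein of somatic cells and embryos (chromosome 16, position 58361351), the level was 10.0% of 32512 reads at 8 hpf (9.72% to 10.4%) and 13.3% of 53843 at 6 hpf (13.0% to 13.6%). This change of −3.22 points was the smallest of all called falls, and Fisher's exact test gave 1.44e-44 and the beta-binomial test an adjusted p of 0.254. At ubc, a polyubiquitin gene, a site on chromosome 11 (21577815) had 21.6% of 30062 reads at 8 hpf and 36.8% of 16364 at 6 hpf. Its C reads were nearly equal (6504 at 8 hpf and 6022 at 6 hpf), and its T reads numbered 23558 at 8 hpf and 10342 at 6 hpf. The other ubc site (21578043) did the same, at 17.3% at 8 hpf and 30.6% at 6 hpf. Copies of the ubiquitin repeat are close to identical, so reads over ubc are less certain to be placed.

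The chromatin protein gene hmgb2b had the same form, with 3241 C and 21838 T reads at 8 hpf against 3589 C and 7882 T reads at 6 hpf. Its level was 12.9% at 8 hpf and 31.3% at 6 hpf. In cnbpa, which encodes a nucleic acid-binding zinc finger protein, C reads differed instead. There were 2130 C and 9442 T reads at 8 hpf, 18.4%, against 10878 C and 8324 T reads at 6 hpf, 56.7%. In rcc1, the exchange factor of the nuclear transport GTPase Ran, both counts were lower at 8 hpf, with 3162 C and 2701 T reads (53.9%) against 24960 C and 11485 T reads (68.5%) at 6 hpf. The site in taf15, an RNA-binding protein gene, had 12% at 8 hpf and 16.0% at 6 hpf, and the site in nme2b.2, a nucleoside diphosphate kinase gene, had 12.1% at 8 hpf and 19.8% at 6 hpf. The call for taf15 (5.41e-32 by Fisher's exact test) was lost in the beta-binomial test, at an adjusted p of 0.171.

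C reads themselves were several-fold higher at 8 hpf in a few genes. The largest ratio with at least 100 reads at both stages was in alyref, the mRNA export adaptor that reads m5C (chromosome 3, position 60289950). It had 1226 C and 2974 T reads at 8 hpf, 29.2% (27.8% to 30.6%), against 178 C and 210 T reads at 6 hpf, 45.9% (41.0% to 50.9%), so C reads were 6.89-fold and T reads 14.2-fold higher while the level fell (adjusted p = 2.08e-10 by Fisher's exact test). A site of pabpc1a (58369840) had 1179 C and 6582 T reads at 8 hpf and 173 C and 333 T reads at 6 hpf, and its level fell to 15.2% at 8 hpf, against 34.2% at 6 hpf. In gapdh, which encodes a glycolytic enzyme, C reads were 6.44-fold and T reads 5.55-fold higher, and the level of 13.4% of 1296 reads at 8 hpf and 11.8% of 229 at 6 hpf did not pass the test. In hdlbpa, an RNA-binding protein gene, 1 site had C reads 6.08-fold and T reads 5.59-fold higher, with 12.9% of 2919 reads at 8 hpf and 12% of 517 at 6 hpf, and did not pass either.

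T reads showed still wider ratios. In atp1a1a.1, the sodium pump's catalytic subunit, there were 283 C and 1754 T reads at 8 hpf, 13.9%, against 72 C and 60 T reads at 6 hpf, 54.5%, a T ratio of 29.2. In bsg, which encodes the membrane protein basigin, the T ratio was 17.8, and the level was 10.4% of 6083 reads at 8 hpf and 28.7% of 429 at 6 hpf. The site of gnb2l1, whose product RACK1 sits on the small ribosomal subunit (chromosome 14, position 6916231), kept its C reads, with 4030 at 8 hpf and 3106 at 6 hpf. Its T reads numbered 7734 at 8 hpf and 579 at 6 hpf. The level was thus 34.3% at 8 hpf (33.4% to 35.1%) and 84.3% at 6 hpf (83.1% to 85.4%), after 92.7% to 96.7% at 0 to 4 hpf.

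At the other end, C reads were far fewer in golph3, a Golgi protein gene, with 97 C and 775 T reads at 8 hpf against 1474 C and 4190 T reads at 6 hpf. Its level was 11.1% at 8 hpf and 26% at 6 hpf. Similar C ratios of 0.0719 and 0.0726 were found in trim23 and fbxw8, parts of the ubiquitin system, and 0.0973 in gtf2e2, a general transcription factor subunit. In gtf2e2 the level was 14.9% of 368 reads at 8 hpf and 44.6% of 1268 at 6 hpf. The 1 shared site on the mitochondrial chromosome (position 1862, gene AC024175.17) had 156 reads at 8 hpf and 1605 at 6 hpf, with 1457 again at 10 hpf. Its level was 79.5% at 8 hpf (72.5% to 85.1%) and 87.4% at 6 hpf (85.7% to 88.9%). The call by Fisher's exact test (adjusted p = 0.0201) was lost in the beta-binomial test (adjusted p = 0.0662). At 16, 24 and 48 hpf the level of this site was 79.6%, 82.1% and 78.6%. Whether the site lies in a messenger RNA was not examined.

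**Figure D4:**
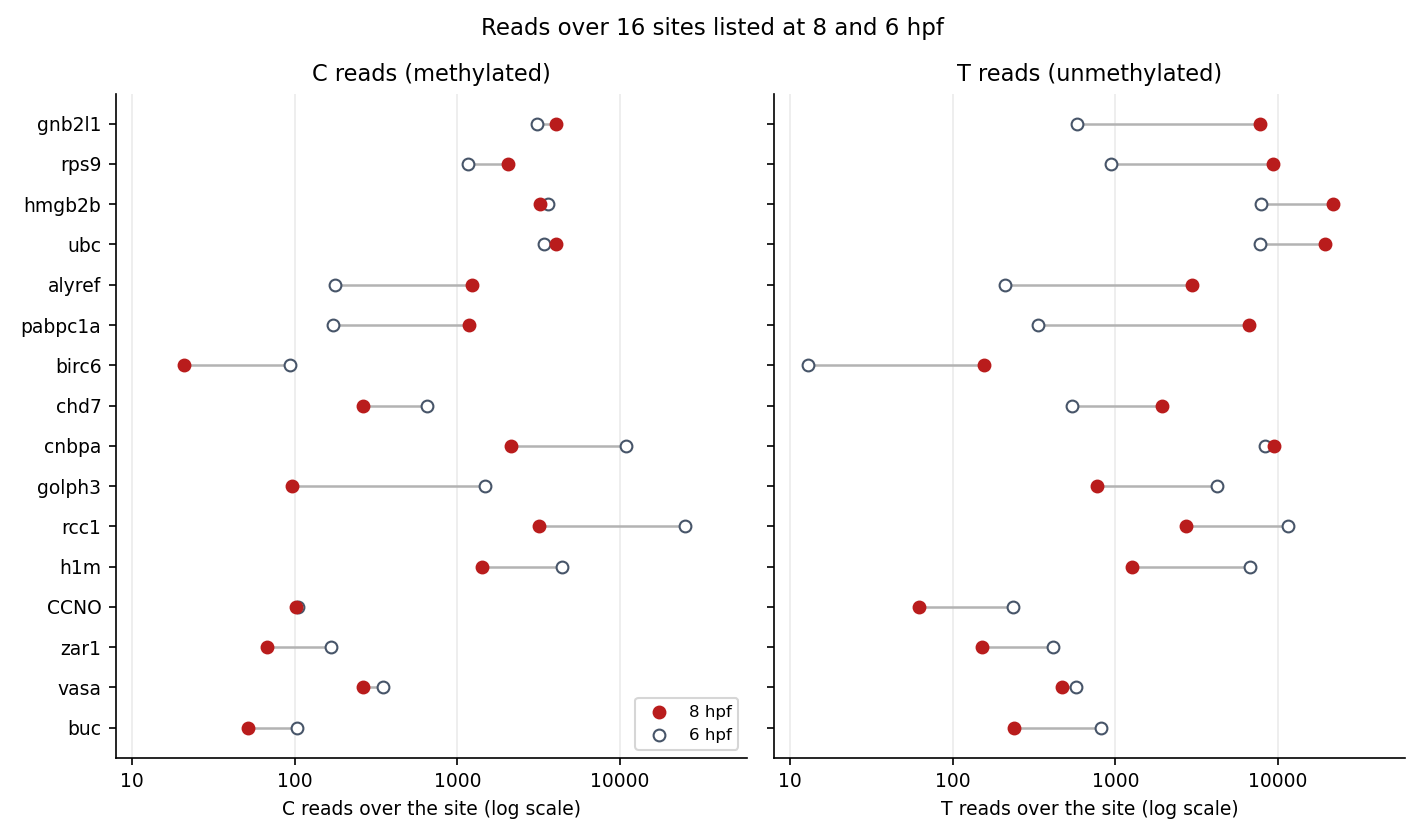
C reads (left panel) and T reads (right panel) over 16 sites listed at both stages, on log axes, with 8 hpf as filled and 6 hpf as open points. From gnb2l1 to chd7 the filled T points lie to the right of the open ones, and from golph3 to buc they lie to the left; where a gene has several shared sites, the one with the largest T ratio is drawn.

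Sites whose level rose were few. The largest called rise with at least 100 reads at both stages was at a site of the gene listed as CCNO, a cyclin (chromosome 18, position 38997749). Its C reads were nearly equal, 102 at 8 hpf and 105 at 6 hpf, while T reads numbered 62 at 8 hpf and 236 at 6 hpf. The level was 62.2% at 8 hpf (54.6% to 69.3%) and 30.8% at 6 hpf (26.1% to 35.9%). Fisher's exact test gave an adjusted p of 1.68e-10. In tdrd7, a germ granule protein gene, a site on chromosome 1 (11493398) had 48.0% of 148 reads at 8 hpf and 27.5% of 222 at 6 hpf. Another shared site of tdrd7 (11507899) changed by only 0.804 points and passed neither test. In jam2a, which encodes a junctional adhesion molecule, the level was 35.8% of 123 reads at 8 hpf and 18.0% of 477 at 6 hpf, and in lgi1a, a secreted leucine-rich protein gene, 59.0% of 173 at 8 hpf and 41.6% of 895 at 6 hpf.

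The deepest of the risen sites lay in h1m, the linker histone of the egg and germ cells (scaffold Zv9_NA660, position 16595). It had 1418 C and 1273 T reads at 8 hpf, 52.7% (50.8% to 54.6%), against 4391 C and 6696 T reads at 6 hpf, 39.6% (38.7% to 40.5%). Its coverage was 109503 reads at 0 hpf and 31447 at 4 hpf, and its level stood at 49.8% and 45.2% there. The remaining rises of this rule were in CABZ01066734.1 (45.6% at 8 hpf and 30% at 6 hpf), C20H1orf112 (31.5% at 8 hpf and 17.6% at 6 hpf), ENSDARG00000075908 (43.2% at 8 hpf and 29.5% at 6 hpf), pak1, a kinase of cell movement (23.1% at 8 hpf and 11.8% at 6 hpf), and npepl1, an aminopeptidase (23.1% at 8 hpf and 14.7% at 6 hpf). In pak1 C reads were 2.59-fold higher at 8 hpf, whereas in the 4 others they ranged from 0.315 to 1.18 of those at 6 hpf.

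The 27 risen sites were all listed at 4 hpf too, where their median level was 26.2%. At 21 of them the level at 6 hpf was the lower of those at 4 and 6 hpf. The same held at 535 of all 733 shared sites that were listed at 4 hpf. At each of the 27 the level at 8 hpf was above that at 4 hpf, against 127 of the 733. A low value at 6 hpf and a high value at 8 hpf help a site to be called higher, so these counts are a description. At 10 hpf 20 of the 27 (74.1%) were still listed, against 30.1% of all shared sites and 23.3% of the 348 that fell. The risen sites stood at a median of 43.2% at 8 hpf and the fallen ones at 16.2%. Sites close to the 10% minimum leave a list more readily, so this contrast follows in part from how the groups were chosen.

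No shared site of egg and germ plasm genes was called lower by either test. The list comprised oocyte and germ cell genes such as buc, vasa, zar1, h1m, the piwi and tudor genes and the egg coat genes, and 18 sites in 14 of them were shared. Of these, 4 rose and 0 fell by Fisher's exact test, beside 3.58% and 46.2% of all shared sites. The level was the lower one at 8 hpf at 6 of the 18, the widest of these changes being −9.80 points, and none of them passed. The 4 were in h1m, tdrd7, tdrd5 and buc, and another shared site of tdrd7 did not pass. The beta-binomial test called 3 rises and 0 falls, buc being lost (adjusted p = 0.0734). The median level was 28.8% at 8 hpf and 23.1% at 6 hpf, with a median change of 2.23 points against −8.99 over all shared sites. The 10% minimum leaves less room for a fall at sites that start low. At 6 hpf the median level was 42.4% for all sites called lower and 21.5% for sites not called. Over the gene lists it ranged from 17.3% (cell cycle) to 59.9% (genome activation). Whether the level at 6 hpf accounts for differences between the lists was not tested. Summed over the 18 sites, C reads numbered 2521 at 8 hpf and 5784 at 6 hpf, and T reads 4302 at 8 hpf and 12278 at 6 hpf. The h1m site alone held 1418 of the C and 1273 of the T reads at 8 hpf, and 4391 and 6696 of them at 6 hpf.

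In buc, the organiser of the germ plasm (chromosome 2, position 28025710), there were 52 C and 238 T reads at 8 hpf, 17.9%, against 103 C and 819 T reads at 6 hpf, 11.2% (adjusted p = 0.00835 by Fisher's exact test). The tdrd5 site had 19 C of 39 reads at 8 hpf and 31 C of 138 reads at 6 hpf. The site of vasa, the germ cell RNA helicase, had 35.8% of 732 reads at 8 hpf (32.4% to 39.3%) and 38.1% of 919 at 6 hpf (35.0% to 41.3%), and did not pass the test. In zar1, which is needed for oocyte growth, it was 31.1% of 219 reads at 8 hpf and 28.6% of 583 at 6 hpf. A claudin gene of the egg, cldnd, had 10.9% of 513 reads at 8 hpf and 10.8% of 2350 at 6 hpf at one site (25157873), and 144286 reads at 0 hpf. In piwil1, the piRNA-binding protein, 3 sites were shared and none passed the test, with 47.5% of 59 reads, 10.5% of 57 and 26.5% of 34 at 8 hpf and 40.7% of 81, 12.6% of 348 and 18.5% of 27 at 6 hpf.

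Shared sites of egg coat genes lay in zp3b, zp3.2, zp3a.2 and ZP2. In zp3b the level was 65.8% of 228 reads at 8 hpf and 66.3% of 184 at 6 hpf. In zp3.2 T reads were 4.66-fold higher at 8 hpf and the level was 36.3% of 278 reads at 8 hpf and 38.7% of 62 at 6 hpf. In ZP2 the level was 32.9% of 140 reads at 8 hpf and 23.6% of 148 at 6 hpf, and in zp3a.2 11% of 391 at 8 hpf and 13.6% of 154 at 6 hpf. None of the 4 passed the test. Egg coat genes have close copies, so their reads are less certain to be placed. Of the 31 egg and germ plasm sites at 6 hpf, 18 (58.1%) were also listed at 8 hpf, against 28.1% of all sites, and of the 18 shared sites 15 (83.3%) were still listed at 10 hpf.

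In genes of the translation machinery 8 of 10 shared sites fell by Fisher's exact test, which called 46.2% of all shared sites lower. The beta-binomial test called 3 falls in ribosomal protein genes and 4 in translation factor genes, beside 40.6% of all shared sites. Several of these sites were deeply read, and deep coverage lets small changes pass Fisher's exact test. The fall lost in the beta-binomial test was that of 3.22 points in pabpc1a, a gene with 3 of the 10 sites. The ribosomal protein list counts gnb2l1, whose product sits on the small ribosomal subunit, and its shared sites lay in only 2 genes. All 3 fell under both tests, 1 in gnb2l1 and 2 adjacent ones in rps9, a small-subunit protein gene. At rps9 the levels were 12.3% and 18.0% on 10669 and 11315 reads at 8 hpf, against 44.4% and 55.1% on 1736 and 2100 reads at 6 hpf. Over the 3 sites C reads were 7384 at 8 hpf and 5034 at 6 hpf, while T reads were 26364 at 8 hpf and 2487 at 6 hpf. The median level of the 3 sites at 6 hpf was 55.1%, against 30.4% over all shared sites. Adjacent cytosines share reads and are not independent.

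Of the 7 shared sites of translation factor genes, 5 fell and 1 rose by Fisher's exact test, beside 46.2% and 3.58% of all shared sites, and 4 falls and 0 rises were called by the beta-binomial test, beside 40.6% and 2.52%. Falls were found at all 3 shared sites of pabpc1a, in eif3ea, an initiation factor subunit (12.6% at 8 hpf and 24.3% at 6 hpf), and in eif4g2a, a scaffold of non-canonical initiation (11.9% at 8 hpf and 34.1% at 6 hpf). The rise was in eef1da, an elongation factor subunit, with 178 C and 500 T reads at 8 hpf, 26.3%, against 274 C and 1038 T reads at 6 hpf, 20.9%. Its adjusted p was 0.0181 by Fisher's exact test and 0.216 by the beta-binomial test. The site of EIF4G3 had 24.0% of 50 reads at 8 hpf and 17.1% of 35 at 6 hpf and did not pass.

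The pabpc1a gene shows how sites of 1 gene differed. Its site at 58357208 had 4571 C and 15308 T reads at 8 hpf, 23.0%, against 2895 C and 3590 T reads at 6 hpf, 44.6%. At 58361351 T reads were fewer at 8 hpf, with a ratio of 0.626, and at 58369840 they were 19.8-fold more. A further pabpc1a site (58363768) had 4447 C of 42704 reads at 6 hpf, 10.4%, close to the 10% minimum, and was not listed at 8 hpf. Another (58357358), with 16.0% of 7653 reads at 6 hpf, was not listed at 8 hpf either. The gene has close copies in the genome.

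The ubiquitin and proteasome genes mark proteins for breakdown and carry it out. Their 28 shared sites, in 23 genes, had a median level of 36.6% at 6 hpf, against 30.4% over all shared sites. Whether this accounts for the number of falls was not tested. By Fisher's exact test 20 of the 28 fell and 0 rose, against 46.2% of all shared sites that fell. The beta-binomial test called 19 falls, against 40.6% of all shared sites, the one lost being at 1 of a pair of sites in RNF5 (adjusted p = 0.119). Besides birc6, fbxo10 and ubc they included psmb1, a core proteasome subunit, with 395 C and 2055 T reads at 8 hpf against 1154 C and 1072 T reads at 6 hpf (16.1% at 8 hpf and 51.8% at 6 hpf). In psmd14, the proteasome's deubiquitinase, the level was 24.7% at 8 hpf and 54.0% at 6 hpf on nearly equal T reads, 472 at 8 hpf and 469 at 6 hpf. At psmd2, a subunit of the proteasome's regulatory particle, neighbouring sites had 10.7% and 18.1% at 8 hpf and 19.1% and 59.8% at 6 hpf, and both fell. In huwe1, a large ubiquitin ligase, both shared sites fell, with 12.2% and 12.6% at 8 hpf and 30.2% and 30.3% at 6 hpf. Sites that did not pass included itcha (45.5% of 55 reads at 8 hpf and 33.3% of 141 at 6 hpf) and herc2 (18.5% of 54 at 8 hpf and 21.1% of 95 at 6 hpf).

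Of 13 shared sites of chromatin genes 8 fell and 0 rose under either test. Of all shared sites 46.2% fell by Fisher's exact test and 40.6% by the beta-binomial test. The median level of the 13 sites at 6 hpf was 40.1%, against 30.4% over all shared sites. Whether this accounts for the number of falls was not tested. The site of chd7, a chromatin remodeller, stood at 96.1% to 97.7% at 0 to 4 hpf, and had 265 C and 1931 T reads at 8 hpf, 12.1%, against 648 C and 541 T reads at 6 hpf, 54.5%. In smarcb1a, a core subunit of the SWI/SNF remodeller, C reads were equal (62 at 8 hpf and 61 at 6 hpf) and T reads numbered 533 at 8 hpf and 91 at 6 hpf. In dnmt3aa, a DNA methyltransferase, and phf14 the levels were 18.2% and 11.9% at 8 hpf and 18.7% and 11.4% at 6 hpf.

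The 4 shared sites of genome activation genes, which serve transcription when the embryo's genome is switched on, all fell under both tests, which called 46.2% (Fisher) and 40.6% (beta-binomial) of all shared sites lower. They were in the elongation factors supt5h (22.4% of 1225 reads at 8 hpf and 65.4% of 1647 at 6 hpf) and supt6h (10.9% of 1187 at 8 hpf and 48.1% of 810 at 6 hpf), and in the acetyltransferase genes crebbpa (13.3% of 98 at 8 hpf and 64.9% of 37 at 6 hpf) and kat2a (29.7% of 421 at 8 hpf and 54.9% of 339 at 6 hpf). Both acetyltransferase genes also count among the chromatin genes. The 4 sites of genome activation genes had a median level of 59.9% at 6 hpf, against 30.4% over all shared sites. The 3 shared sites of gastrulation genes fell as well, beside the same shares of all sites. They were in apc, the scaffold that targets beta-catenin for breakdown (14.6% of 281 reads at 8 hpf and 57.9% of 126 at 6 hpf), in ctnnb2, a beta-catenin (58.9% of 5819 at 8 hpf and 67.5% of 6345 at 6 hpf), and in rock1, a kinase that contracts actomyosin (19.7% of 229 at 8 hpf and 46.7% of 195 at 6 hpf). Of the 14 gastrulation sites at 6 hpf, 3 (21.4%) were shared, against 28.1% of all sites at 6 hpf.

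Among genes of RNA decay and maternal clearance, 5 of 7 shared sites fell by Fisher's exact test, beside 46.2% of all shared sites, and 4 did so by the beta-binomial test, beside 40.6%, the one lost being in caprin1b (adjusted p = 0.0993). In cnot2, a subunit of the deadenylase that shortens poly(A) tails, it was 10.7% of 822 reads at 8 hpf and 50.5% of 370 at 6 hpf. In tob1b, an antiproliferative factor that binds this deadenylase, it was 11.3% of 485 reads at 8 hpf and 19.3% of 783 at 6 hpf. Of dis3l2, an exonuclease of uridylated RNA, 1 site fell (36.5% at 8 hpf and 61.5% at 6 hpf) and the other did not pass (15.8% at 8 hpf and 20.7% at 6 hpf).

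Cell cycle genes gave 2 falls and 0 rises among 9 shared sites by Fisher's exact test and 1 fall by the beta-binomial test, below the 46.2% and 40.6% of all shared sites that these tests called lower. The median level of these 9 sites at 6 hpf was 17.3%, against 30.4% over all shared sites. Whether this accounts for the fewer falls was not tested. The Fisher calls were cdc14ab, a phosphatase of mitotic exit (10.2% of 147 reads at 8 hpf and 35.0% of 103 at 6 hpf), and a site of rad50, a DNA repair protein, which had 16 C reads of 61 at 8 hpf and 155 C of 360 at 6 hpf. The rad50 call was lost in the beta-binomial test (adjusted p = 0.0589). The site of smc4, a condensin subunit, had 13.6% of 1821 reads at 8 hpf and 14.8% of 2301 at 6 hpf, and those of kif23, a kinesin of cytokinesis, had 14% and 27.1% at 8 hpf and 17.3% and 23.0% at 6 hpf. Of 5 cytoskeleton sites 3 fell under both tests, beside 46.2% (Fisher) and 40.6% (beta-binomial) of all shared sites, among them 1 of myh9a, a non-muscle myosin (18.3% at 8 hpf and 46.4% at 6 hpf). Shared sites of genes of m5C writers and readers came down to the alyref site, and no member of the list of mitochondrial transcripts was found by symbol.

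Sites of the same gene were then compared. In 99 genes with 2 or more shared sites (221 sites), the level of all sites of a gene changed in the same direction in 67, and all T ratios were on the same side of 1 in 60. Among all shared sites 76.8% had the lower level at 8 hpf, and T reads were higher at 378 and lower at 374. Sites that changed independently would thus often agree, and no expected count was computed. The first and the last shared site of a gene lay at least 1000 nt apart on the genome in 79 genes. Whether both lay on the same transcript was not examined. Across those genes the log2 coverage ratios of the 2 sites had a Pearson correlation of 0.498 (Spearman 0.498), the C ratios 0.446 (0.425), the T ratios 0.397 (0.375) and the changes in level 0.344 (0.271). These are descriptions across 79 genes from the same libraries. The change in level of the first site against the coverage ratio of the last gave a Spearman correlation of 0.0525 and a Pearson correlation of 0.0299. The first site changed by a median of −8.33 points in the 39 genes whose last site had more coverage at 8 hpf and by −8.62 points in the other 40.

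Genes with the most shared sites were plxna3, a plexin receptor of guidance cues, with 5, and plcg1, a phospholipase, NEO1, a netrin receptor, and trpm7, a cation channel with a kinase domain, with 4 each. Of the plxna3 sites 3 fell and the other 2 did not pass, one of them at 24.2% of 99 reads at 8 hpf and 23.6% of 106 at 6 hpf. In trpm7 1 site rose to 23.1% of 52 reads at 8 hpf, against 10.4% of 278 at 6 hpf, and the others stood at 10.6% to 15.6% at 8 hpf and 10.1% to 12.6% at 6 hpf. In NEO1 1 site fell to 36.7% of 60 reads at 8 hpf, against 70.0% of 30 at 6 hpf, while 3 sites held 10.8%, 15.5% and 36.1% at 8 hpf and 10.5%, 11.1% and 35.7% at 6 hpf.

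Whether a site of 6 hpf was listed again at 8 hpf went with its level and its coverage. The shared sites had a median level of 30.4% and a median coverage of 181 reads at 6 hpf, and the sites not listed at 8 hpf had 16.5% and 116 reads. Of sites at 50% or more at 6 hpf, 70.7% (Wilson 95% interval 64.7% to 76.1%) were listed at 8 hpf, and 93.8% (79.9% to 98.3%) of those with 500 or more reads. Of sites under 20%, 14.1% (12.4% to 16.0%) were listed at 8 hpf, and 16.1% (12.2% to 20.9%) of those with 500 or more reads. Within genes the order was the same. There were 192 genes that had sites of both kinds. In 167 of them the mean level of the shared sites at 6 hpf was the higher one. The medians were 33.9% for shared sites and 15.8% for the others. Sites close to the level minimum or the read minimum of the lists leave a list more readily. The shares by level and coverage and the order within genes therefore follow in part from these minimums, and are a description.

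**Figure D5:**
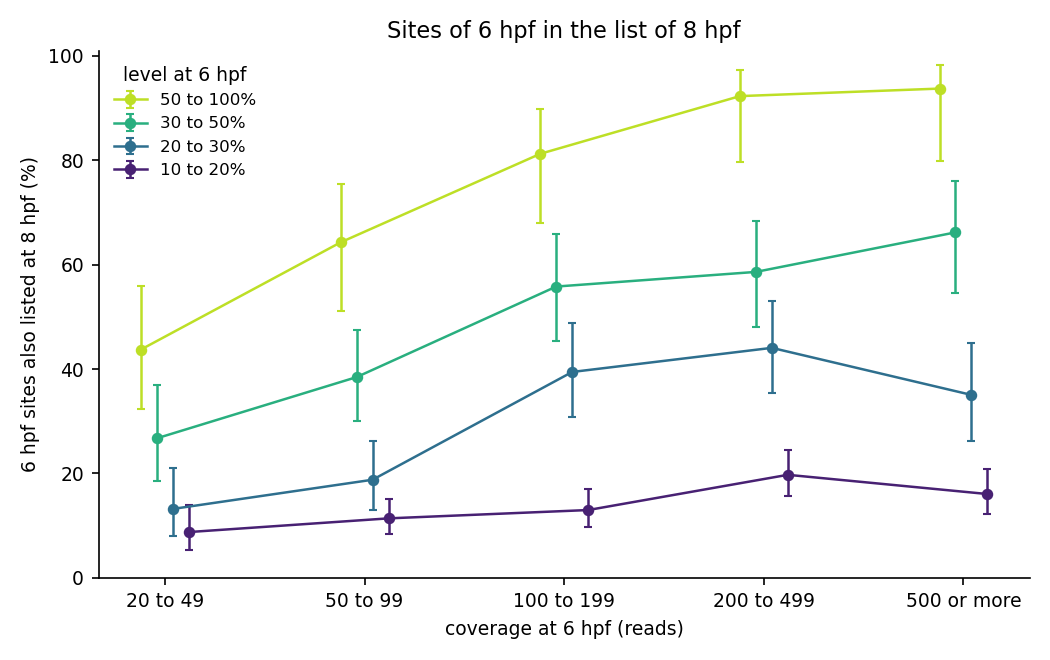
Share in percent of the 6 hpf sites that were also listed at 8 hpf (y axis), by coverage at 6 hpf in reads (x axis) and by level at 6 hpf (lines), with Wilson 95% intervals as bars. The share was 93.8% for the highest and 16.1% for the lowest level class at 500 or more reads, and 43.8% and 8.77% at 20 to 49 reads.

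Of the 1931 sites not listed at 8 hpf, 1750 (90.6%) had been listed at 0, 2 or 4 hpf, and 29 (1.5%) were listed again at 10 hpf. A site of another position was listed at 8 hpf in the genes of 363 (18.8%) of them. Apart from pabpc1a, the most C reads at 6 hpf were at g3bp1, a stress granule protein gene, with 2768 of 9441 reads (29.3%), after 59.9% to 63.7% at 0 to 4 hpf. They were followed by gspt1l, a translation release factor (17.0% of 12647 reads), srsf7a, a splicing factor (14.6% of 11998), cdc6, which loads the replicative helicase (15.7% of 10543), sec61a1, the channel of the endoplasmic reticulum (44.0% of 2664), and tcp1, a chaperonin subunit (21.3% of 5342).

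The highest levels on at least 100 reads at 6 hpf that were not listed at 8 hpf were in slc5a6, a vitamin transporter (82.5% of 103 reads), ap3d1, a vesicle adaptor subunit (68.3% of 104), ctbp2a, a corepressor (65.2% of 955), dennd5b (64.4% of 194) and ERAP1, a peptidase (62.8% of 145). By number, SPEN, a transcriptional repressor, was left with none of its 7 sites of 6 hpf, sf3b3, a splicing subunit, with none of 6, and zc3h13, part of the m6A writer, with none of 5. In chd7 1 of 7 sites was listed at 8 hpf, and in tpra 2 of 8.

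The 498 sites listed at 8 hpf and not at 6 hpf were shallower. Their median level was 15% (95% interval 14.4% to 15.8%) and their median coverage 69 reads, against 17.9% and 140 reads at 8 hpf for the shared sites. Of them 297 (59.6%) had been listed at 0, 2 or 4 hpf, so that 201 (40.4%) were in no earlier list, and 48 of these 201 were listed again at 10 hpf. In 68 genes, with 68 sites, no site of any list from 0 to 6 hpf was found. Besides gpx1a, the most C reads in these genes were at ddx19, an RNA helicase (41 of 400 reads, 10.2%), ehd1a, a membrane recycling ATPase (41 of 181, 22.7%), rsu1, an adhesion protein (37 of 141, 26.2%), and arl9, a small GTPase (35 of 344, 10.2%). The 188 that were listed at 4 hpf had a median of 16.0% at 8 hpf and 27% at 4 hpf, on 68 reads at 8 hpf and 77.5 at 4 hpf.

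The most C reads among them were in fth1a, a ferritin subunit, with 605 of 5543 reads (10.9%), just above the minimum. At 4 hpf this site had 19 C of 42 reads. In zgc:66479 the level was 33.1% of 456 reads at 8 hpf, 12% of 108 at 4 hpf and 39.0% of 277 at 10 hpf. In dag1, which encodes the matrix receptor dystroglycan, it was 26.3% of 373 reads at 8 hpf and 66.0% of 47 at 2 hpf. The others by this rule were add1, a cytoskeletal adducin (13.3% of 994 reads), cstf1, a polyadenylation factor (13.7% of 948), zgc:110239 (22.9% of 538), nap1l4a, a histone chaperone (11.8% of 935), and LGALS3, a galectin (40.2% of 264). The LGALS3 site (chromosome 13, position 36984057) was in no earlier list and had 33.1% of 266 reads at 10 hpf.

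The highest level on at least 100 reads was in gpx1a, a glutathione peroxidase gene (chromosome 11, position 36889791), with 79 C of 163 reads at 8 hpf, 48.5% (40.9% to 56.1%). Neither this site nor any other of the gene was listed from 0 to 6 hpf, and it had 25% of 340 reads at 10 hpf. In bcl7ba, a remodeller subunit, the site had 46.0% of 137 reads at 8 hpf after 87.7% to 89.5% at 0 to 4 hpf, and 11.8% of 203 reads at 10 hpf. In med10, a Mediator subunit, it was 31.8% of 280 reads at 8 hpf after 90.3% and 97.0% at 0 and 2 hpf, and in pgd, an enzyme of the pentose phosphate pathway, 30% of 170 after 64.0% and 64.4%. The site of si:ch73-207h17.1 had 38.2% of 152 reads and that of SEC16A 34.7% of 121.

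By number of such sites, vps13a, a lipid transfer protein gene, led with 5, none of which was in an earlier list, and SEC16A, LGALS3, NRD1, POR, tsc2 and si:ch211-233a24.2 had 3 each. Egg and germ plasm genes gave 14 of the 498 sites, in 12 genes, and 7 of the 14 lay in egg coat genes. Among those listed before 6 hpf were sites of zar1 (12.8% of 156 reads at 8 hpf and 11.6% of 922 at 4 hpf) and HOOK2 (63.1% of 65 reads at 8 hpf and 62.7% of 118 at 4 hpf). Over all genes, 498 of the 1252 sites at 8 hpf were not listed at 6 hpf, and in egg and germ plasm genes 14 of 32. Ribosomal protein genes gave 0 of 3, genome activation genes 0 of 4 and translation factor genes 2 of 9. Chromatin genes gave 6 of 19, and ubiquitin and proteasome genes 12 of 40. No difference between the lists was tested.

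The sites listed at 6, 8 and 10 hpf numbered 227. Their median level was 33.0% at 6 hpf, 27.1% at 8 hpf and 17.7% at 10 hpf, and 37.8% at 4 hpf where 223 of them were listed. For neighbouring steps, each with its own shared sites, the median ratio of C reads was 0.391 from 4 to 6 hpf, 0.513 from 6 to 8 hpf and 0.724 from 8 to 10 hpf, and that of T reads was 0.552, 1.0 and 1.05. These ratios use reads as listed. Scaled by mapped reads, those from 6 to 8 hpf were 0.402 for C and 0.787 for T. The other steps are given unscaled, so differences between steps may also come from the depth of the libraries. The spread of the log2 T ratio over sites (SD) was 1.10, 1.63 and 0.78 in these steps. Neighbouring steps share a list, so these values are given side by side without a test.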

How the data were processed

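RNA of pooled wild-type AB embryos was bisulfite-converted and sequenced; 2 libraries per stage were grouped by their titles. The authors trimmed reads (cutadapt, Trimmomatic), mapped them to the converted Zv9 genome of Ensembl release 78 with HISAT2 and unmapped or multiply mapped reads to converted transcripts with Bowtie2. They kept bases of quality 30 or more, set a C-cutoff of 3 against unconverted reads, and called sites by a binomial test with replicates combined. According to the paper, a site had to be present in both replicates, or to have enough variant bases where the other replicate lacked coverage. Close gene copies can share reads. The authors deposited coverage as a read count (C and T together), the methylation level as a fraction, and a p-value per site, which was not used. C reads were coverage times level, whole within 1e-06.

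Shared sites were tested by Fisher's exact test (scipy 1.17.1) with Benjamini-Hochberg adjustment, threshold 0.05. A logistic model across replicates was replaced by it because the lists pool replicates. Log2 ratios used 0.5 added reads. Intervals are Wilson or order-statistic 95% intervals. Depth is the coverage of a site. The tests were checked on simulated data without a listing minimum and with unchanged sites kept away from low and high levels. That check therefore does not cover the many shared sites at low levels. Alternatives were coverage of at least 50 or 100, a level of at least 0.2, a mean level of at least 0.3, matching within 2 nt or by gene, 1 site per gene, no neighbour within 10 nt, 1 added read, scaling by mapped reads and a z test with beta-binomial variance (correlation 0.00232).

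Members, gene lists and tests were chosen with earlier results of these data known. Sites named were the 10 largest called falls and rises and the extremes of C and T ratios (all on 100 or more reads at 8 and 6 hpf), the 8 deepest shared sites, the leading sites at 1 stage only by C reads and by level, genes first listed at 8 hpf, genes with most sites, and members of the gene lists with shared or gained sites; not all of the last are printed, and a few sites that these rules name are not reported here. Genes caught by a name prefix and known for another role were removed from the cell cycle and chromatin lists after their names were seen. Of 2264 genes 1859 (82.1%) were in a table of current names. Exons, untranslated regions, motifs and sequences of Zv9 were not analysed here.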

Additional observations from a re-analysis of the deposited data

Results flagged for a closer look

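A few of the sites listed at 8 hpf and not at 6 hpf were listed again at stages the comparison does not use, where far fewer sites were listed. The gpx1a site (chromosome 11, position 36889791) had a level of 16.0% at 16 hpf (74 C of 462 reads), 22.5% at 24 hpf (72 of 320) and 22.9% at 48 hpf (58 of 253). A site of zp3a.2, an egg coat gene with close copies (chromosome 20, position 34012893), had 81.8% at 16 hpf, on 22 reads. Also at 16 hpf, ODF3L2 (chromosome 2, position 42034873) had 10.5% of 38 reads. At 24 hpf prrc2a (chromosome 19, position 27229318) had 11.3% of 291 reads. At 48 hpf nup205 (chromosome 18, position 11708580) had 10.2% of 98 reads and usf2 (chromosome 19, position 11198196) 10% of 140 reads. These are values from 1 combined list per stage, so levels could not be compared between replicates here.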

How the results depend on the processing

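Of the alternatives to the main values, 25 stayed within the set limits and 19 moved. With coverage of at least 100 reads, 615 sites were listed at 8 hpf and 1601 at 6 hpf, 383 at both, 232 at 8 hpf only and 1218 at 6 hpf only, so that 23.9% of the 6 hpf sites were also listed at 8 hpf. With a level of at least 0.2 the counts were 450 at 8 hpf and 1249 at 6 hpf, 266 at both, 184 at 8 hpf only and 983 at 6 hpf only, a share of 21.3%. Over genes the share was 35.3%. The median change in level was −11.7 points with at least 100 reads at both stages and −22.6 points at a mean level of at least 0.3. Divided by mapped reads, a shift of 0.35 on the log2 scale, the median log2 ratio was −1.31 for C reads and −0.35 for T reads. The median for T reads, 0.0058 as listed, was also below 0 with 1 site per gene (−0.083), so its sign depends on the setting. With a level of at least 0.2 at both stages 16 sites were called higher and 114 lower. Fewer sites entered under each minimum by construction, and the cause of other shifts was not tested.

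For the shared sites singled out by name, 116 kept their side of the threshold and 8 calls were lost when extra spread between stages was allowed, at adjusted p-values of 0.0589 to 0.254. No paired analysis was possible because the lists combine the replicates of a stage, and for the same reason leaving out a replicate and a replicate block were not run. Depth limits sites with few reads, and no site listed at 8 or 6 hpf had under 4 C reads. Levels under 10% were not listed, so a fall beyond that is not among the shared sites.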
